A study of Mus musculus with 9 samples.

Results

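Cultured spermatogonia are sorted and followed by proteins on their surface, and 10 genes for such proteins were examined here: *Itga6*, *Itgb1*, *Cdh1*, *Epcam*, *Cd9*, *Cd24a*, *Mcam*, *Adgra3*, *Tex101* and *Ly6k*. They were picked by symbol from a table of 53801 genes, and each symbol named 1 row. All 10 were among the 22452 genes that passed the filter on low counts. RNA was sequenced from mouse SSC cultures, labelled as an SSC cell line, in 9 libraries that form 3 groups of 3. By the study's account, the cells came from Prmt5 flox/flox; Rosa26-CreERT2 mice, in which Cre is made from a broadly active locus, and 4OHT at 1 µM deleted *Prmt5* in culture. The 4OHT group received nothing else, the MU group is read as cells that also carried a lentiviral PRMT5 (E444Q), a form without catalytic activity, and the OE group as cells that carried PRMT5 (WT). The labels do not spell out MU and OE. Other mouse SSC cultures of the study were kept on feeder cells, and whether feeder cells were removed before RNA was taken for these libraries is not given in the sources used here. All 3 groups carry the deletion, no group with an empty virus or without 4OHT was analysed here, and so virus and PRMT5 cannot be told apart in either comparison with 4OHT. The labels give neither the age of the mice nor whether the libraries of a group came from separate cultures, so the p-values measure the spread between these libraries, which may be technical.

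Integrins are paired receptors for the extracellular matrix, and the pair of integrin α6 and integrin β1 binds laminin, which spermatogonial stem cells meet on the basement membrane of the seminiferous tubule. E-cadherin (*Cdh1*) and EPCAM hold neighbouring epithelial or germ cells together, and the tetraspanin CD9 gathers integrins and other partners into membrane patches. CD24, TEX101 and LY6K are held in the membrane by a glycolipid anchor, MCAM is an adhesion molecule of the immunoglobulin family, and *Adgra3* encodes the orphan adhesion receptor GPR125. Several of these proteins are also made by fibroblasts, endothelial cells or leukocytes, so the level in a whole culture sums over every cell type present.

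On GRCm38 the 10 genes lie on 9 chromosomes, with *Itgb1* (chr8:128685654-128733200, plus strand) and *Cdh1* (chr8:106603351-106670246, plus strand) on the same one. RefSeq promoter windows, from 250 bases before to 50 after the transcript start on GRCm38.p6, were found for 6 of the 10 genes. Those of *Itgb1* and *Epcam*, which were lower in the OE and MU libraries, and of *Cd9* and *Tex101*, which were higher, are shown so that both directions can be set side by side. Each reads 5′ to 3′ on the strand of the gene, and capitals mark CAGGTG (the E-box bound by SNAI and ZEB repressors), CCAAT (the NF-Y box) and GGGCGG (the GC box of SP factors), searched on both strands. The windows lie at chr8:128685404-128685703 for *Itgb1*, chr17:87635729-87636028 for *Epcam*, chr6:125494711-125495010 (minus strand) for *Cd9* and chr7:24672001-24672300 (minus strand) for *Tex101*.
Itgb1: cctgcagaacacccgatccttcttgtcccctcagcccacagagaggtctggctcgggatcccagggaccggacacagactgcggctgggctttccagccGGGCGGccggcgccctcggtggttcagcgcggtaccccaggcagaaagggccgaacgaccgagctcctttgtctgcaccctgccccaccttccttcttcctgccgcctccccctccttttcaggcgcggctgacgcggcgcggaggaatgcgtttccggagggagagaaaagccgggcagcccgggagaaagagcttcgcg
Epcam: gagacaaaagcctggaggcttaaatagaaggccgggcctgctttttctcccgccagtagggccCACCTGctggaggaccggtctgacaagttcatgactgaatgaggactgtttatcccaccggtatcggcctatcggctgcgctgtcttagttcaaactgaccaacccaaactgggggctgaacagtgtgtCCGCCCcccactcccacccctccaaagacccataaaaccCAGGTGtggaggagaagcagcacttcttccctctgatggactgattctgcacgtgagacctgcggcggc
Cd9: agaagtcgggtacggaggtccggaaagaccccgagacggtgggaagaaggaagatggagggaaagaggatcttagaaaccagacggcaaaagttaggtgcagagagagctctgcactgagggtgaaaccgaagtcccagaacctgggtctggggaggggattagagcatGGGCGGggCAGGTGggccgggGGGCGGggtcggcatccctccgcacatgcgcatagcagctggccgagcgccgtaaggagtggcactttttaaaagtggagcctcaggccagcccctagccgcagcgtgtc
Tex101: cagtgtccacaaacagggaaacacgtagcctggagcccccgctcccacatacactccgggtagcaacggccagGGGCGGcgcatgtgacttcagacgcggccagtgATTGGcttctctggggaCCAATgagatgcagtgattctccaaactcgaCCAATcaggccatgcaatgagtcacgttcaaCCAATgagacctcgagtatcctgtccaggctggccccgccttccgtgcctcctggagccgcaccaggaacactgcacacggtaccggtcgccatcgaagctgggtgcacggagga

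The *Tex101* window held 4 CCAAT matches, a number reached by 1.06% of the 32851 promoter windows in the table. The *Epcam* window held 2 CAGGTG matches, as at least that many did in 2.88% of windows, and that of *Cd9* held 1, against 20.2% with at least 1. GGGCGG had 1 match in each of the windows of *Itgb1*, *Epcam* and *Tex101* and 2 in that of *Cd9*. Of all windows, 35.7% held at least 1 and 19.5% at least 2. *Itgb1* had the most CpG dinucleotides of the 4 windows, 27, compared with 19 for *Tex101*, 18 for *Cd9* and 11 for *Epcam*. The windows of *Mcam* and *Adgra3*, not shown, held 29 and 34 CpG dinucleotides and 5 and 1 GGGCGG matches. These matches describe the letters only and are not binding sites. The *Tex101* start used by RefSeq lies inside the gene as drawn by GENCODE (chr7:24668007-24676675, minus strand).

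Library totals ran from 78751996 to 365719548 counts, and the 3 MU libraries were the deepest. The targeted gene, *Prmt5*, read 28.2 to 32.0 CPM (counts relative to the library total, scaled by TMM) in the 4OHT libraries, 145 to 147 CPM in the MU libraries and 1071 to 1085 CPM in the OE libraries. Between MU and OE the form of PRMT5 and the *Prmt5* RNA level thus differed together, and they cannot be told apart in that comparison. Summed over 10 germ cell markers, which include *Ddx4* and *Dazl*, the level was 2447 to 2454 CPM with 4OHT, 3871 to 3978 CPM in MU and 4134 to 4197 CPM in OE. Of these markers, 9 of 10 rose and 1, *Zbtb16*, fell in both the OE and the MU libraries compared with 4OHT (edgeR, adjusted p under 0.05). By the same call 29.9% of all genes rose and 27.9% fell in OE, and 29.5% rose and 26.5% fell in MU. Markers of the labelled germ cells were thus present in every library, and so were those of other cells. Summed fibroblast markers were 6097 to 7099 CPM with 4OHT, 3584 to 3600 CPM in MU and 2746 to 2838 CPM in OE; all 10 fell in OE, and 9 fell and 1, *Dcn*, rose in MU. Macrophage markers were 173.5 to 187.9 CPM, 1138 to 1170 CPM and 2219 to 2343 CPM in the same order, and all 10 rose in both comparisons. Endothelial and mural markers summed to 285.1 to 307.5 CPM with 4OHT, 112 to 116 CPM in MU and 96.2 to 97.0 CPM in OE, with 1 risen and 5 fallen in OE and 1 risen and 6 fallen in MU of 10. That is 60% called in OE beside 57.8% of all genes, and 70% in MU beside 56.0%. Sertoli and Leydig cell markers summed to between 20.9 and 31.1 CPM in all 9 libraries, with *Hsd3b1* at 0 in every one. Mitochondrial transcripts took 1.31% to 1.89% of counts with 4OHT, 2.75% to 2.94% in MU and 2.88% to 3.07% in OE.

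**Figure D1:**
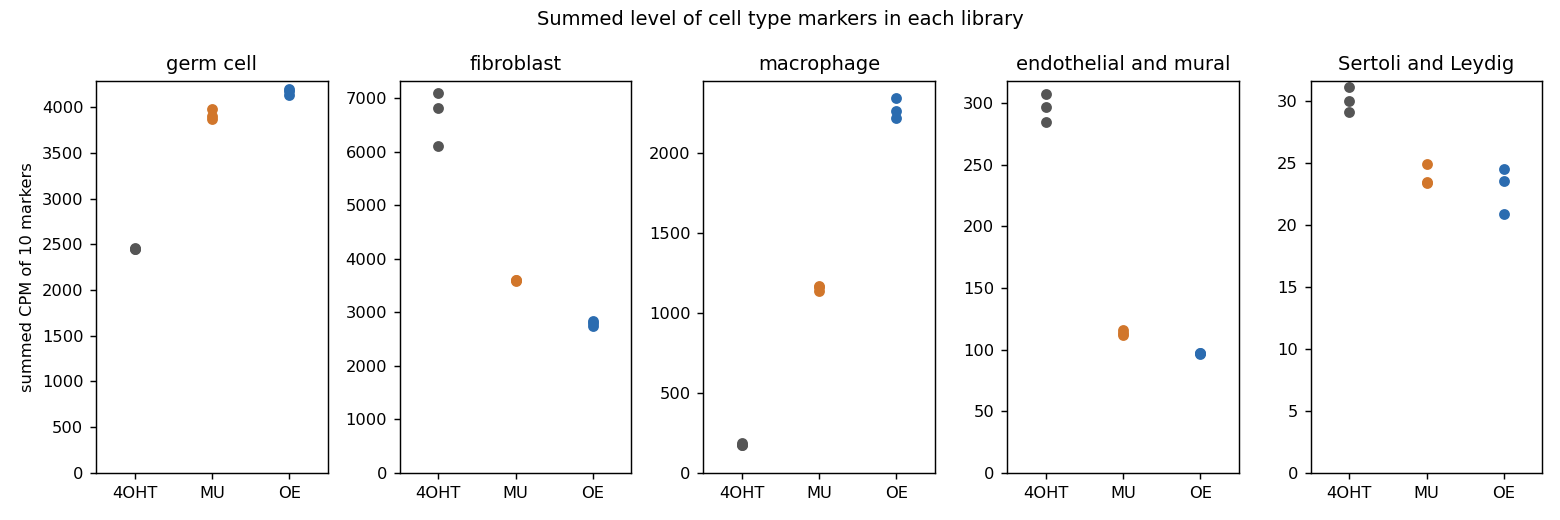
Summed CPM of 10 markers for each of 5 cell types (y axis, a separate scale starting at 0 in each panel) in the 4OHT, MU and OE libraries (x axis), 1 point a library. Germ cell markers were lowest with 4OHT (2447 to 2454 CPM), fibroblast markers were highest there (6097 to 7099 CPM), and macrophage markers were highest in OE (2219 to 2343 CPM).

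Compared with 4OHT, 8 of the 10 surface genes were called in the OE libraries (edgeR's quasi-likelihood test over all 22452 genes, adjusted p under 0.05), 5 higher and 3 lower. Over all genes tested, 57.8% were called in this comparison, 29.9% higher and 27.9% lower. In the MU libraries 6 of 10 were called, 3 in each direction, against 56.0% of all genes (29.5% higher and 26.5% lower). Both comparisons use the same 4OHT libraries. Between MU and OE, 3 of 10 were called, 2 higher and 1 lower in MU, where 3.17% of all genes were called (2.12% higher and 1.06% lower). That count of 3 fell to 1, *Cd9*, without any 1 of the MU libraries, OE replicate 2 or OE replicate 3, and the 712 genes called in all became 400 to 477 without 1 of these 5 libraries and 1099 without 4OHT replicate 3. The median log2 fold change of the 10 genes was 0.15 for OE and 0.02 for MU against 4OHT, beside 0.02 and 0.04 over all genes, and it was -0.06 for MU against OE beside 0.01. The libraries of the groups did not overlap for 7 of the 10 genes between OE and 4OHT, 4 of them higher in OE and 3 lower, compared with 61.6% of all genes (31.5% higher and 30.1% lower). Between MU and 4OHT they did not overlap for 6, with 3 in each direction, compared with 63.9% of all genes (33.8% higher and 30.1% lower). For MU against OE they did not overlap for 7 of 10, against 25.9% of all genes, 2 of them higher in MU (13.0% of all genes) and 5 lower (12.8%). Called changes of at least 1.5-fold were held by 4 of the 10 genes in OE against 4OHT (*Itgb1*, *Cdh1*, *Cd9* and *Tex101*; 35.3% of all genes) and by 3 in MU against 4OHT (*Itgb1*, *Cdh1* and *Cd24a*; 32.9%), and none of the 3 called between MU and OE reached that size (1.07%). In a whole culture, fewer cells of a type and less RNA per cell cannot be told apart.

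**Figure D2:**
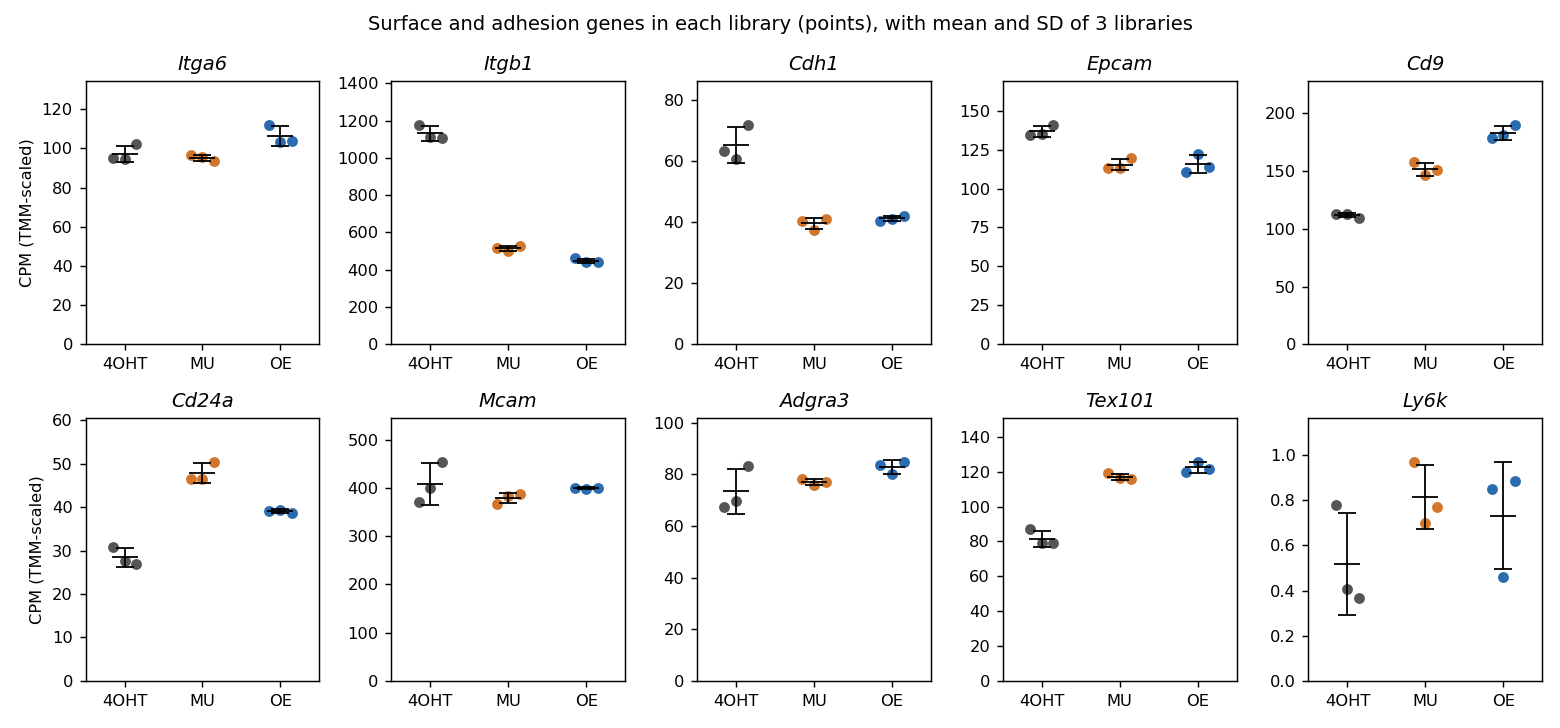
CPM of each of the 10 genes (y axis from 0, a separate scale in each panel) in the 4OHT, MU and OE libraries (x axis), with each library as a point and the mean and SD of 3 libraries in black. *Itgb1* and *Cdh1* were highest with 4OHT, *Cd9* and *Tex101* were lowest there, and the groups of *Mcam*, *Adgra3* and *Ly6k* overlapped between 4OHT and OE.

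*Itgb1* encodes integrin β1, the partner of many α chains, and it had the largest difference of the 10 genes. With 4OHT its libraries read 1177, 1113 and 1104 CPM, in MU 517.3, 499.3 and 525.1 CPM, and in OE 460.1, 439.7 and 440.0 CPM. The 3 groups did not overlap, and OE was the lowest. The level was 2.53-fold lower in OE than with 4OHT (log2 fold change -1.34, SE 0.045, edgeR adjusted p = 1.93e-11) and also lower in MU than with 4OHT (log2 fold change -1.14, edgeR adjusted p = 1.16e-10). MU lay above OE by 0.20 on the log2 scale (95% interval 0.11 to 0.30, edgeR adjusted p = 0.0228). That call was lost without any 1 of the MU libraries, OE replicate 2 or OE replicate 3, with differences of 0.19 to 0.22 and edgeR adjusted p between 0.052 and 0.14. *Itgb1* was lower where the summed fibroblast markers were lower, in the same order of groups, and the part of these markers in the result was not tested.

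*Itga6* encodes integrin α6, whose antibodies enrich spermatogonial stem cells, and it stayed within a narrow range. Its libraries read 95.2, 94.6 and 102.0 CPM with 4OHT, 96.5, 95.4 and 93.7 CPM in MU and 112.0, 103.1 and 103.9 CPM in OE. All 3 OE libraries lay above the others, the nearest being 4OHT replicate 3, and MU overlapped 4OHT. The rise in OE over 4OHT was 0.13 on the log2 scale (95% interval 0.02 to 0.24, edgeR adjusted p = 0.0439), and it was called under only 4 of 17 alternative settings. It was lost when any 1 library other than 4OHT replicate 3 or OE replicate 2 was left out. MU differed from 4OHT by -0.03 (edgeR adjusted p = 0.635) and from OE by -0.16 (edgeR adjusted p = 0.141); the difference from OE was called under 2 of 17 alternative settings, without 4OHT replicate 3 (edgeR adjusted p = 0.0347) and in a fit of the MU and OE libraries alone (edgeR adjusted p = 0.02).

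Per kilobase of exon, *Itgb1* mRNA was 23.9 to 27.3 times that of *Itga6* with 4OHT, 11.6 to 12.4 times in MU and 9.09 to 9.43 times in OE. The ratios of the 3 groups did not overlap. Against the summed level of the 12 α chains that pair with integrin β1, the *Itgb1* level per kilobase was 2.95 to 3.56 times as high with 4OHT, 2.93 to 3.08 times in MU and 2.66 to 2.74 times in OE. The α chains summed to 81.0 to 91.8 CPM per kilobase with 4OHT and to 40.4 to 41.8 CPM per kilobase in the MU and OE libraries. *Itgb1* and this sum were thus both lower there, but not every α chain was. *Itga6* itself averaged 10.8 CPM per kilobase with 4OHT, 10.6 in MU and 11.8 in OE. *Itga6* made up 12.3% to 13% of the α chain level with 4OHT, 24.8% to 25.9% in MU and 28.3% to 30.1% in OE. *Itga5* averaged 34.2, 9.96 and 8.46 CPM per kilobase in the 4OHT, MU and OE groups, and *Itgav* 21.8, 6.12 and 5.85. *Itga9* went the other way, at 1.74, 5.58 and 5.57. These are levels of whole cultures, and the part of the fibroblast markers in the ratios was not tested.

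Of 23 other integrin subunits tested, 7 rose and 10 fell in OE compared with 4OHT (median log2 fold change -0.10), and 8 rose and 9 fell in MU (median -0.12). Counts of risen and fallen genes in this and the later lists are of genes called by edgeR. Over all genes, 29.9% rose and 27.9% fell in OE, and 29.5% rose and 26.5% fell in MU. *Itgb2* and *Itgam*, the leukocyte integrin chains that form the receptor Mac-1, rose most, with log2 fold changes of 4.31 and 3.60 in OE and 3.10 and 3.66 in MU (edgeR adjusted p at most 1.79e-08). *Itga2*, a collagen receptor chain, fell from 28.4 CPM with 4OHT to 3.11 CPM in MU and 2.26 CPM in OE, and *Itga4*, a fibronectin and VCAM1 receptor chain, from 27.6 CPM to 5.72 and 3.70 CPM. Between MU and OE, *Itga4* was higher and *Itgb2* lower in MU (log2 fold changes 0.62 and -1.21, edgeR adjusted p = 0.00315 and 1.58e-05). Among 17 integrin activators and adaptors, 4 rose and 11 fell in both comparisons with 4OHT (median log2 fold change -0.61 in OE and -0.71 in MU). *Zyx* (zyxin, a focal adhesion protein) fell from 320 CPM to 103 CPM in MU and 87.1 CPM in OE, and *Parva* (α-parvin) from 260 CPM to 83.8 and 71.4 CPM. The haematopoietic members *Fermt3* (kindlin 3) and *Parvg* (γ-parvin) rose, with log2 fold changes of 3.76 and 2.01 in OE and 2.73 and 2.40 in MU. *Itgb2*, *Itgam* and *Fermt3* are leukocyte genes and rose in the same libraries as the macrophage markers, of which *Itgam* is one; their part in the result was not tested.

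*Cdh1*, the gene for E-cadherin, read 63.4, 60.6 and 71.9 CPM with 4OHT, 40.3, 37.6 and 41.1 CPM in MU and 40.5, 41.1 and 42.2 CPM in OE. Every 4OHT library lay above every other library, and MU and OE overlapped. The level was 1.58-fold lower in OE (log2 fold change -0.66, SE 0.067, edgeR adjusted p = 1.12e-06) and 1.65-fold lower in MU (log2 fold change -0.72, edgeR adjusted p = 4.92e-07). MU and OE differed by -0.06 on the log2 scale, with a 95% interval of -0.20 to 0.09. Germ cell markers were higher and fibroblast markers lower in the libraries where *Cdh1* was lower; their part in the result was not tested.

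Cadherins link to the cytoskeleton through catenins, and of 20 other classical cadherins and catenins tested, 5 rose and 11 fell in OE (median log2 fold change -0.37) and 4 rose and 12 fell in MU (median -0.31). For this and the next 2 lists, the shares of all genes were 29.9% risen and 27.9% fallen in OE. In MU they were 29.5% and 26.5%. *Cdh11*, a cadherin of mesenchymal cells, fell from 277 CPM with 4OHT to 87.4 CPM in MU and 66.8 CPM in OE, and *Cdh6* from 4.72 CPM to 0.424 and 0.384 CPM. *Cdh4* (R-cadherin) rose from 24.1 CPM to 30.9 and 36.5 CPM, and *Ctnna2* (αN-catenin) from 6.56 to 10.2 and 10.5 CPM. Of the 8 listed repressors of the *Cdh1* promoter, 1 rose and 6 fell in each comparison with 4OHT, with median log2 fold changes of -1.38 and -1.28. *Twist2* fell from 83.7 CPM to 20.6 CPM in MU and 16.3 CPM in OE, *Snai2* from 24.9 to 6.68 and 5.02 CPM, and *Snai3* rose by 0.50 in OE and 0.56 in MU on the log2 scale. *Cdh1* and most of its listed repressors were lower in the same libraries. *Snai1* was not called (-0.13 in OE, edgeR adjusted p = 0.274, and -0.07 in MU, edgeR adjusted p = 0.585). The part of the repressors in the *Cdh1* level was not tested, and a whole culture does not show which cells held their RNA. Among 9 epithelial regulators, 4 rose and 2 fell in OE and 3 rose and 1 fell in MU. *Grhl2*, an activator of *Cdh1*, rose from 19.8 CPM to 29.5 and 30.2 CPM, and *Elf3* from 1.34 to 3.83 and 3.65 CPM. The splicing factor *Esrp2* fell by 0.43 in OE on the log2 scale (edgeR adjusted p = 0.0448), and in MU its log2 fold change was -0.30 (edgeR adjusted p = 0.15).

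*Epcam* read 134.3, 135.1 and 140.9 CPM with 4OHT, 113.2, 113.4 and 119.4 CPM in MU and 110.9, 122.4 and 113.8 CPM in OE. The 4OHT libraries were the 3 highest, and MU and OE overlapped. The level was 1.18-fold lower in OE (log2 fold change -0.24, SE 0.051, edgeR adjusted p = 0.000938) and 1.19-fold lower in MU (log2 fold change -0.25, edgeR adjusted p = 0.000823). The 95% interval of the difference between MU and OE was -0.11 to 0.10. EPCAM binds claudins and is cut by matriptase, and of 8 tested genes for its paralogue, claudin partners, matriptase and the inhibitors of matriptase, 4 rose and 3 fell in OE and 4 rose and 2 fell in MU. Among all genes, 29.9% rose and 27.9% fell in OE, and 29.5% rose and 26.5% fell in MU. *Spint1*, an inhibitor of matriptase, rose from 52.5 CPM to 91.7 CPM in MU and 98.3 CPM in OE, and *St14*, matriptase itself, fell from 22 CPM to 11.2 and 11.9 CPM. *Cldn1* fell from 26.2 CPM to 5.28 and 4.79 CPM, whereas *Cldn6* rose from 1.01 to 2.77 and 2.54 CPM. Of 9 sheddase and γ-secretase genes, whose products cut E-cadherin and EPCAM at the membrane, 2 rose and 5 fell in OE and 2 rose and 6 fell in MU. *Adam17* rose from 123 to 151 and 154 CPM and *Ncstn* (nicastrin) fell from 139 to 71.6 and 69.3 CPM. *Aph1c* rose from 2.71 to 9.09 and 9.69 CPM and *Aph1b* fell from 12.4 to 8.92 and 8.41 CPM; these are close copies of each other, and how the counting divided their shared reads is not given in the sources used here.

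*Cd9* rose most of the 10 genes in OE. It read 113.2, 113.2 and 109.5 CPM with 4OHT, 157.7, 146.5 and 151.1 CPM in MU and 178.5, 181.2 and 190.1 CPM in OE. The 3 groups were in that order with no overlap. The level was 1.64-fold higher in OE than with 4OHT (log2 fold change 0.71, SE 0.048, edgeR adjusted p = 1.62e-08) and 1.36-fold higher in MU (log2 fold change 0.44, edgeR adjusted p = 2.38e-06). MU lay below OE by a log2 difference of -0.27 (95% interval -0.37 to -0.17, edgeR adjusted p = 0.00458), and this call held without any 1 library. The exons of *Cd9* share 218 bases with *Gm26728* on the other strand, and since the sources used here do not say whether counting used strand, reads there cannot be told apart. CD9 is present on macrophages as well as on spermatogonia. The summed macrophage markers were ordered as *Cd9* was, and 8 of the 10 were called lower in MU than in OE (1.06% of all genes). Their part in the result was not tested.

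Of 24 other tetraspanins and CD9 partners, 7 rose and 15 fell in each comparison with 4OHT (median log2 fold change -0.43 in OE and -0.47 in MU). Among all genes, 29.9% rose and 27.9% fell in OE, and 29.5% rose and 26.5% fell in MU. The leukocyte tetraspanin *Tspan32* rose from 0.114 CPM with 4OHT to 3.65 CPM in MU and 6.24 CPM in OE, and *Cd37*, of B cells and other leukocytes, from 0.599 to 2 and 3.02 CPM. *Cd63*, a tetraspanin of late endosomes and exosomes, fell from 416 to 177 and 157 CPM, and *Tspan11* from 33.4 to 10.7 and 7.75 CPM. Between MU and OE, *Tspan32* was lower in MU and *Tspan11* higher (log2 fold changes -0.77 and 0.47, edgeR adjusted p = 0.00741 and 0.0175).

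*Cd24a*, which encodes the small mucin-like protein CD24, was highest in MU. It read 30.9, 27.5 and 26.9 CPM with 4OHT, 46.5, 46.4 and 50.5 CPM in MU and 39.2, 39.4 and 38.5 CPM in OE. None of the groups overlapped. The level was 1.37-fold higher in OE than with 4OHT (log2 fold change 0.46, edgeR adjusted p = 3.12e-05) and 1.68-fold higher in MU (log2 fold change 0.75, edgeR adjusted p = 2.40e-07). The difference of MU from OE was 0.29 on the log2 scale (SE 0.063, 95% interval 0.15 to 0.43, edgeR adjusted p = 0.0215). It was lost when any 1 MU or OE library was left out, with differences of 0.25 to 0.31 and edgeR adjusted p between 0.065 and 0.14. *Cd24a* was the single member called whose mean was highest in MU.

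*Mcam* encodes CD146, which also marks endothelial and mural cells. Its libraries read 370.6, 399.2 and 454.5 CPM with 4OHT, 367.2, 383.2 and 387.7 CPM in MU and 400.5, 397.6 and 399.9 CPM in OE. The 4OHT libraries spread more widely than those of the other groups and overlapped both. OE differed from 4OHT by -0.03 on the log2 scale (95% interval -0.17 to 0.10, edgeR adjusted p = 0.696) and MU by -0.11 (95% interval -0.24 to 0.03, edgeR adjusted p = 0.175). The signs of these differences depend on the scaling, since with library totals alone they were 0.06 and 0.01. Without 4OHT replicate 1, the lowest of its group, the difference of MU from 4OHT was called (-0.18, edgeR adjusted p = 0.0121). The mean of *Mcam* was 408 CPM with 4OHT and 399 CPM in OE. Of the 10 endothelial and mural markers, 5 fell, 1 rose and 4 were not called in OE compared with 4OHT, where 57.8% of all genes were called. *Acta2* and *Tagln*, markers of mural cells and of activated fibroblasts, fell from 88 and 120 CPM with 4OHT to 22.3 and 20.3 CPM in OE. *Myh11*, another mural marker, averaged 0.763 and 0.821 CPM per kilobase of exon in those groups. The part of these cells in the *Mcam* level was not tested. The endothelial receptor *Kdr* was at 1.13 to 1.69 CPM in the 3 group means. The exons of *Mcam* share 17 bases with the antisense gene *Gm10687*.

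*Adgra3*, the gene for GPR125, read 67.2, 69.6 and 83.3 CPM with 4OHT, 78.3, 76.0 and 77.1 CPM in MU and 83.8, 80.0 and 84.9 CPM in OE. 4OHT replicate 3, the highest of its group, overlapped both other groups. The difference of OE from 4OHT was 0.18 on the log2 scale (SE 0.070, 95% interval 0.03 to 0.33, edgeR adjusted p = 0.0453), and it was called under 5 of 17 alternative settings. Without 4OHT replicate 3 it was 0.27 (edgeR adjusted p = 0.000191), and it was lost when any 1 library other than that one or OE replicate 2 was left out. MU differed from 4OHT by 0.07 (edgeR adjusted p = 0.413) and was called under 2 of 17 alternative settings, without 4OHT replicate 3 (0.17, edgeR adjusted p = 0.00695) and with library totals alone (0.185, edgeR adjusted p = 0.0247). Among 24 other adhesion GPCRs, 7 rose and 7 fell in OE and 8 rose and 7 fell in MU. The share called was thus 58.3% in OE and 62.5% in MU, near the 57.8% and 56.0% of all genes. The paralogue *Adgra2* fell from 137 CPM with 4OHT to 35.7 CPM in MU and 27.2 CPM in OE, and *Adgrg6* from 52.5 to 9.48 and 8.93 CPM. *Adgre1*, which encodes the macrophage antigen F4/80, rose from 2.61 to 17.6 and 34.3 CPM, and *Adgrf5* from 6.53 to 19.9 and 20.1 CPM.

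*Tex101*, a germ cell gene of the LY6 and uPAR family, read 86.9, 79.1 and 78.8 CPM with 4OHT, 119.0, 116.1 and 115.7 CPM in MU and 120.0, 125.8 and 121.6 CPM in OE. Every 4OHT library lay below every other, and each OE library lay above each MU library by a small margin. The log2 fold change was 0.59 in OE (SE 0.050, edgeR adjusted p = 2.19e-07), and the level was 1.43-fold higher in MU (log2 fold change 0.52, edgeR adjusted p = 7.98e-07). MU and OE differed by -0.07 (95% interval -0.17 to 0.04, edgeR adjusted p = 0.677). The germ cell markers rose in the same libraries, and their part in the result was not tested.

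*Ly6k*, whose product pairs with TEX101 in testicular germ cells, was the least abundant of the 10 genes. At about 4 counts a read pair, it had 59, 34 and 33 counts with 4OHT, 192, 264 and 183 counts in MU and 69, 43 and 139 counts in OE, or 0.778, 0.406 and 0.368 CPM, 0.972, 0.697 and 0.770 CPM, and 0.849, 0.460 and 0.887 CPM. All 3 groups overlapped. The log2 fold change was 0.51 in OE (95% interval -0.28 to 1.30, edgeR adjusted p = 0.257) and 0.66 in MU (95% interval -0.12 to 1.43, edgeR adjusted p = 0.142). Each interval includes no change as well as the change seen for *Tex101* (0.59 in OE and 0.52 in MU). Without 4OHT replicate 1 the difference of MU from 4OHT was called (1.05, edgeR adjusted p = 0.0284). *Ly6k* shares 395 exon bases with the antisense gene *Gm17189*, out of its 829 bases.

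Of 34 other LY6 and uPAR family genes listed, 18 were tested, of which 7 rose and 5 fell in OE and 8 rose and 4 fell in MU (median log2 fold change 0.52 and 0.44). Among all genes, 29.9% rose and 27.9% fell in OE, and 29.5% rose and 26.5% fell in MU. *Ly6g6e* rose from 16.1 CPM with 4OHT to 50.7 CPM in MU and 45.8 CPM in OE, and *Ly6g6c* from 1.81 to 7.08 and 6.84 CPM. *Lynx1*, a modulator of nicotinic receptors, fell from 61.9 to 21.2 and 17.6 CPM, and *Cd59a*, an inhibitor of complement, from 11.8 to 5.69 and 4.86 CPM. Between MU and OE the 3 members called, all higher in MU, were *Ly6a*, *Ly6c1* and *Lynx1*, with log2 fold changes of 0.70, 0.91 and 0.27; the first 2 were named after their values were seen, and they belong to a cluster of similar genes whose reads may be shared. TEX101 and LY6K act in the maturation of the sperm protein ADAM3, and of 9 other tested genes of that process 2 rose and 2 fell in each comparison with 4OHT. The chaperone gene *Clgn* (calmegin) rose from 11.1 to 38.8 and 37.3 CPM, and *Pgap1*, which remodels glycolipid anchors, from 36.6 to 73.3 and 71.2 CPM. *Ace* fell from 23.2 to 10 and 10.6 CPM and *Tpst2*, a tyrosylprotein sulfotransferase, from 59.8 to 48.2 and 48.1 CPM.

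**Figure D3:**
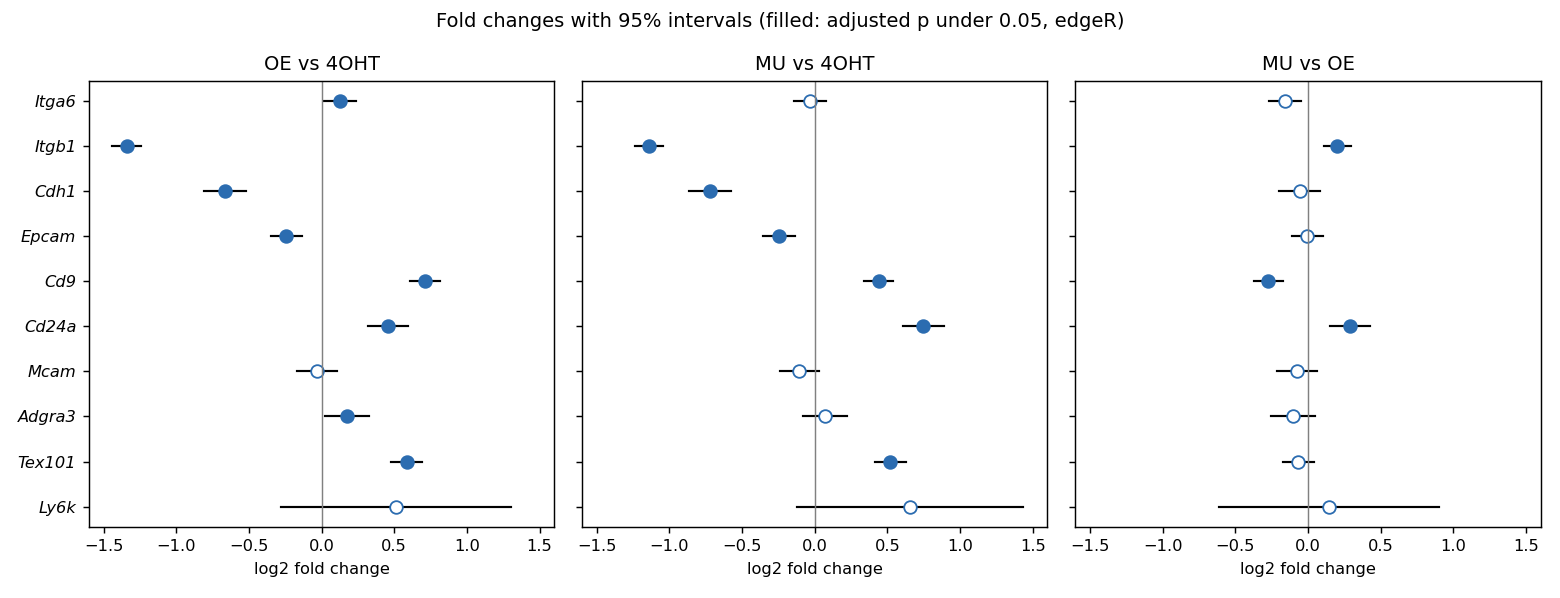
Log2 fold change (x axis) of each of the 10 genes (y axis) in 3 panels, OE against 4OHT, MU against 4OHT and MU against OE, with 95% intervals as lines and filled points where edgeR's adjusted p was under 0.05. *Itgb1* lay farthest to the left in both comparisons with 4OHT (-1.34 and -1.14), and *Ly6k* had the widest intervals.

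Of 10 genes for further surface proteins by which spermatogonia are known, 6 were called lower and 3 higher in each comparison with 4OHT. Their median log2 fold change was -0.72 in OE and -0.98 in MU. Over all genes, 27.9% were called lower and 29.9% higher in OE, and 26.5% lower and 29.5% higher in MU. The 10 genes were listed with earlier results of these data known. *Kit*, the receptor of differentiating spermatogonia, rose from 16.3 CPM with 4OHT to 81.1 CPM in MU and 81.7 CPM in OE, and *Tspan33* from 10 to 24.7 and 26.9 CPM. *Gfra1*, the GDNF co-receptor of undifferentiated spermatogonia, fell from 120 to 27.5 and 28.2 CPM, and *Epha2*, an ephrin receptor, from 112 to 10.9 and 10.3 CPM. For *Kit* and *Gfra1* MU and OE differed by -0.01 and -0.04 on the log2 scale (edgeR adjusted p = 0.97 and 0.858). Over all 12 lists of further genes, 179 of 207 genes were tested. In OE against 4OHT 136 were called, 53 higher and 83 lower (57.8% of all genes, 29.9% higher and 27.9% lower). In MU against 4OHT 135 were called, 54 higher and 81 lower (56.0% of all genes, 29.5% higher and 26.5% lower). Between MU and OE 20 were called, 11 higher and 9 lower in MU (3.17% of all genes, 2.12% higher and 1.06% lower).

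**Figure D4:**
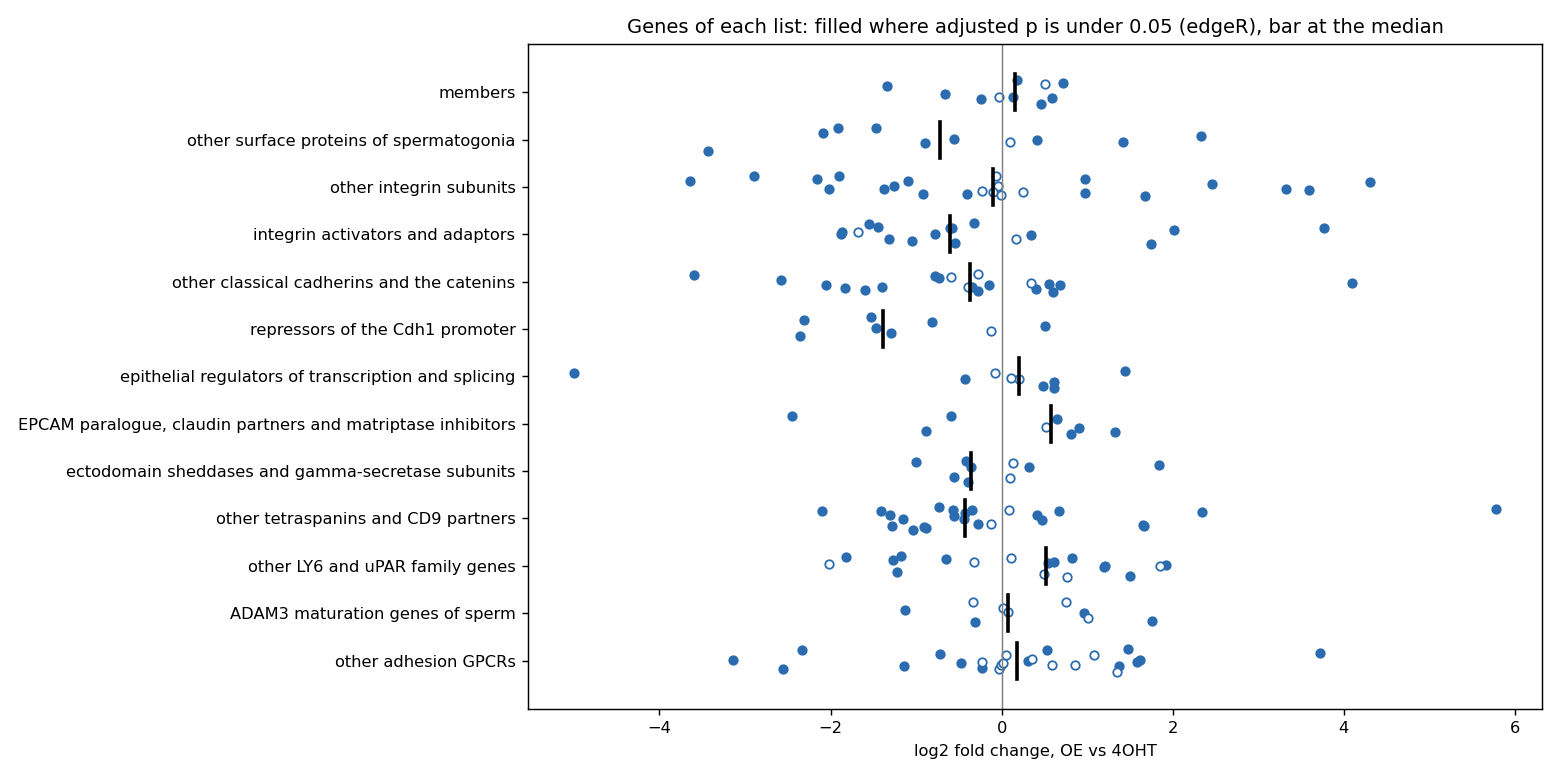
Log2 fold change of OE against 4OHT (x axis) for the genes of each list (y axis), 1 point a gene, filled where edgeR's adjusted p was under 0.05, with a bar at the median of the list. The medians ran from -1.38 for the repressors of *Cdh1* to 0.58 for the EPCAM partners, and that of the 10 surface genes was 0.15.

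Ordered by mean level per kilobase of exon, *Itgb1* was first with 4OHT at 277 CPM per kilobase, followed by *Mcam* (122), *Epcam* (62.3), *Cd9* (54.8), *Tex101* (49.2), *Cdh1* (14.3), *Cd24a* (11.0), *Itga6* (10.8), *Adgra3* (9.05) and *Ly6k* (0.624). Of these neighbours, only *Cd24a* and *Itga6* overlapped between libraries. In MU the order was *Itgb1* (126 CPM per kilobase), *Mcam* (113), *Cd9* (74.3), *Tex101* (70.6), *Epcam* (52.6), *Cd24a* (18.5), *Itga6* (10.6), *Adgra3* (9.51), *Cdh1* (8.67) and *Ly6k* (0.981), and only *Cd9* and *Tex101* overlapped. In OE *Mcam* led with 119 CPM per kilobase, ahead of *Itgb1* (109), *Cd9* (89.7), *Tex101* (73.9), *Epcam* (52.7), *Cd24a* (15.1), *Itga6* (11.8), *Adgra3* (10.2), *Cdh1* (9.03) and *Ly6k* (0.883), and no neighbours overlapped. *Cd9* and *Tex101* thus stood below *Epcam* with 4OHT and above it in the MU and OE libraries, and *Cdh1* moved below *Cd24a*, *Itga6* and *Adgra3*.

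Because the germ cell markers differed between the groups, each gene was also expressed as a percentage of the summed CPM of the 10 germ cell markers, as a description with no test. The sum need not follow the number of germ cells, since 9 of these markers rose and *Zbtb16* fell in both comparisons with 4OHT. *Itgb1* averaged 46.2% with 4OHT, 13.1% in MU and 10.7% in OE. *Cdh1* averaged 2.67%, 1.01% and 0.990%, *Epcam* 5.58%, 2.94% and 2.78%, and *Itga6* 3.97%, 2.43% and 2.55% in the same order. On this scale *Mcam* was at 16.7%, 9.68% and 9.58%, and *Adgra3* at 3.00%, 1.97% and 1.99%. *Tex101*, which was higher in MU and OE as CPM, was at 3.33%, 2.99% and 2.94%. *Cd9* was at 4.57%, 3.88% and 4.40%, and *Cd24a* at 1.16%, 1.22% and 0.936%. The OE libraries lay below all 4OHT libraries for 8 of the 10 genes, the exceptions being *Cd9* and *Ly6k*, and so did 64.9% of all genes tested. The MU libraries did so for 8 of the 10 as well, the exceptions being *Cd24a* and *Ly6k*, and for 62.3% of all genes. Between MU and OE, *Itgb1* and *Cd24a* were higher in MU on this scale (27.9% of all genes) and *Cd9* was lower (3.53%), as they were on the CPM scale. *Itga6*, *Mcam*, *Adgra3* and *Tex101*, whose MU libraries all lay below OE as CPM, overlapped between MU and OE on this scale.

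**Figure D5:**
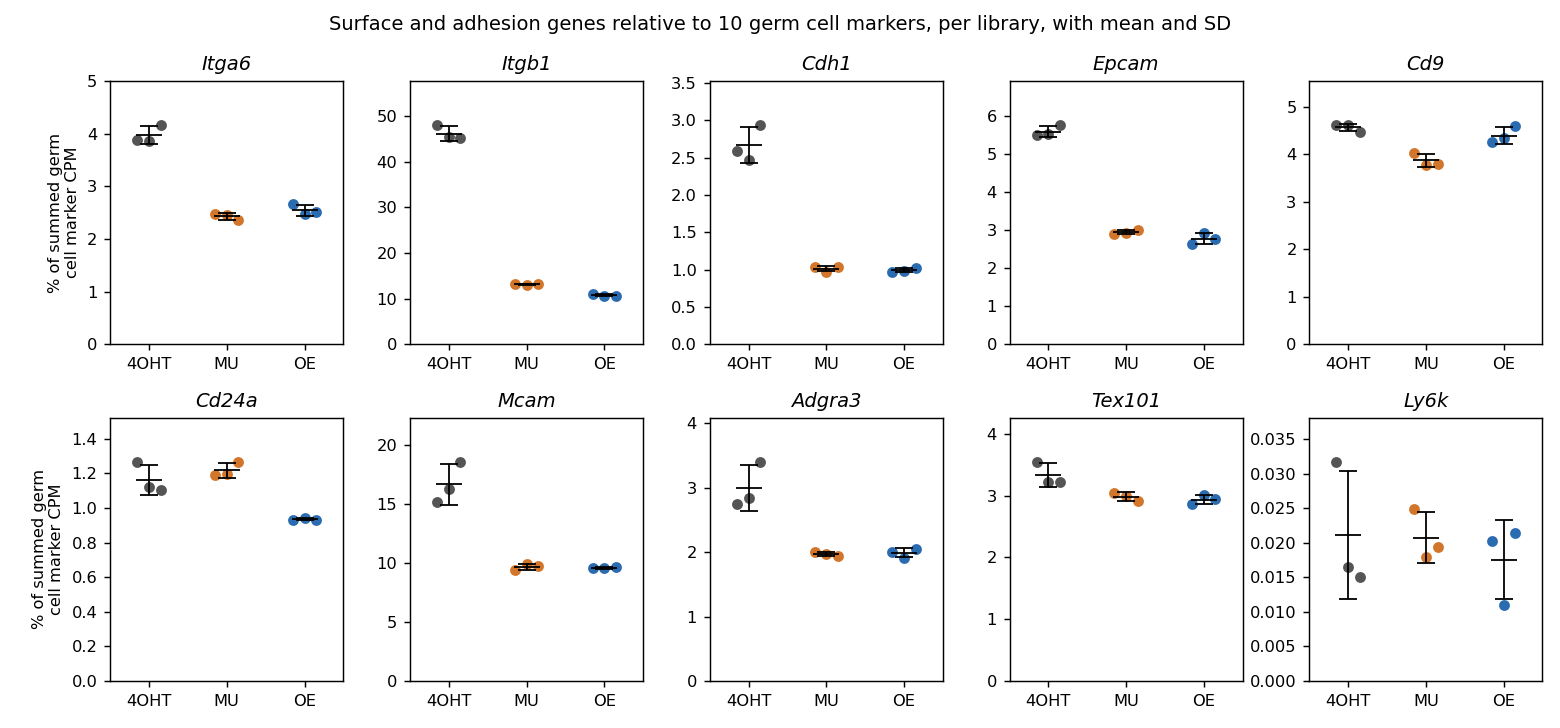
Each of the 10 genes as a percentage of the summed CPM of 10 germ cell markers (y axis from 0, a separate scale in each panel) in the 4OHT, MU and OE libraries (x axis), with each library as a point and the mean and SD in black. *Itgb1* had a mean of 46.2% with 4OHT and of 10.7% in OE, and *Tex101*, higher in OE than with 4OHT as CPM, was at 3.33% with 4OHT and 2.94% in OE.

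For each of the 10 genes the 3 tested genes with the most similar pattern were found by the root mean square difference of log2 CPM over the 9 libraries, each gene centred on its own mean. The closest to *Itgb1* were *Lix1l*, *Crip2* and *Aga* (0.026 to 0.042), and to *Itga6* they were *Btbd7*, *Mpdz* and *Baz1b* (0.039 to 0.041). *Cdh1* was closest to *Ctsd*, *Ctsa* and *Nmt1* (0.038 to 0.048) and *Epcam* to *Rnf41*, *Fam216a* and *Eif4e2* (0.028 to 0.029). For *Cd9* the nearest were *Twnk*, *Prkar2b* and *Trim52* (0.053 to 0.063), and for *Cd24a* *Dmc1*, *2610020C07Rik* and *Gm46430* (0.067 to 0.075). *Mcam* lay nearest to *Padi3*, *Nop2* and *Rbm33* (0.027 to 0.028), *Adgra3* to *Chtf8*, *Ubap2* and *Tln2* (0.022 to 0.030), and *Tex101* to *Taf6l*, *Asnsd1* and *Hspa14* (0.017 to 0.028). *Ly6k*, with its low counts, had no neighbour as close, the nearest being *Gm48027*, *4921515L22Rik* and *A2ml1* (0.118 to 0.187). No other member was among the nearest 3 of any of the 10 genes.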

How the data were processed

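RNA-seq counts from 9 mouse SSC libraries (4OHT, MU and OE, 3 each) were analysed. The authors deposited unnormalized whole-number counts per gene. According to the study's methods, reads were trimmed with BBmap and Trimmomatic (0.39), aligned to GRCm38 with HISAT2 (2.2.1) and quantified with StringTie (2.2.1); how whole numbers were obtained, the handling of strand and of reads with several alignments are not given in the sources used here. Values of 4 counts were in excess in every library, so that 1 read pair is taken as about 4 counts. Totals of 78751996 to 365719548 counts put the floor of 3 counts at 0.00792 to 0.0395 CPM. At about 4 counts, 1 read pair is 0.0106 to 0.0527 CPM, so this floor lies below a single read pair.

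Genes were filtered with filterByExpr (minimum count 10, minimum total 15), scaled by TMM and tested with edgeR (4.0.16, R 4.3.3) by quasi-likelihood over all 9 libraries with group as the factor, and p-values were adjusted by Benjamini-Hochberg over 22452 genes at 0.05. SEs are the log2 fold change divided by the square root of F, with intervals at 95%. The procedure was tested on simulated data. Exon lengths and positions come from GENCODE on GRCm38. The members and gene lists were chosen with earlier results of these data known. From each list of further genes, up to 2 genes in each direction were named, those with the largest change in OE against 4OHT among genes that were called, did not overlap between these groups and averaged 1 CPM or more, and for each of the 10 genes the 3 most similar in pattern. Alternatives were other scalings, no filter, DESeq2, fits of 2 groups, counts divided by 4, a 1.5-fold minimum, a replicate block and leaving out each library.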

Additional observations from a re-analysis of the deposited data

How the results depend on the processing

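Of the 10 surface genes, *Itgb1* and *Cdh1* in both comparisons with 4OHT, *Cd9* and *Tex101* in OE against 4OHT and *Cd24a* in MU against 4OHT kept their direction and call under all 17 alternatives. With a minimum of 1.5-fold, 4, 3 and 0 members were called for OE against 4OHT, MU against 4OHT and MU against OE, 7918, 7382 and 241 genes in all, and 8 genes of the further lists between MU and OE; without that minimum, edgeR's unadjusted p for MU against OE was under 0.05 for 4 members, and DESeq2 called 3 members. DESeq2 called 1118 genes between MU and OE, and a fit of these 2 groups alone called 1565, of which 33 in the further lists. Leaving out 1 library gave 6 to 8 members for OE against 4OHT, 6 to 8 for MU against 4OHT, and 1 to 4 for MU against OE, where 400 to 1099 genes in all and 12 to 27 of the further lists were called. The count of 1 (*Cd9*) arose without any 1 of the MU libraries, OE replicate 2 or OE replicate 3. Small differences that were not called changed sign. With library totals only, which moved the median gene by 0.112 in MU against 4OHT, log2 fold changes were 0.058 for *Mcam* in OE against 4OHT, 0.082 for *Itga6* and 0.008 for *Mcam* in MU against 4OHT, and 0.020 for *Epcam* in MU against OE. Without the filter they were 0.031 for *Itga6* in MU against 4OHT and 0.035 for *Epcam* in MU against OE, which was 0.001 with counts divided by 4. Leaving out 1 library ranged *Adgra3* in MU against 4OHT from -0.001 to 0.167, *Mcam* in OE against 4OHT from -0.112 to 0.043, *Epcam* in MU against OE from -0.034 to 0.036 and *Ly6k* in MU against OE from -0.101 to 0.317. The cause was not tested. Samples sharing a replicate number did not deviate together (r from -0.020 to 0.044), nor did every library correlate best with its own number, so the numbers were not taken as pairs. With a replicate block 7, 6 and 3 members were called in the order above, 12807, 12443 and 674 genes in all and 136, 133 and 19 of the further lists, and *Itga6* in OE against 4OHT was not called (0.127, edgeR adjusted p = 0.0555). Differences for *Ly6k* are limited by its 33 to 264 counts.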
